A study of Mus musculus with 2 samples.

Results

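This account follows 31 genes of fatty acid and cholesterol synthesis through the cells of mouse lung. They were taken by symbol from a list of enzymes and regulators of both pathways, out of 27998 genes listed in the files, and all 31 had at least 1 unique molecular identifier (UMI, a tag that marks a single captured RNA molecule) in both libraries. The list holds 10 genes that make, elongate or desaturate fatty acids or supply their building blocks, 15 enzymes of the cholesterol route, 5 regulators and the sterol carrier Stard4. Levels are given as CPM, the UMIs of a gene scaled to the same total in every cell class (1e+06 UMIs). The 3' chemistry counts each captured molecule once whatever its length, although genes can differ in how well they are captured.

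Both groups were lung cells of C57BL/6J mice aged 10 to 12 weeks, from a series that models hereditary hemorrhagic telangiectasia type 2, in which arteries and veins join through malformed, fragile vessels. One 10x Genomics single-cell library came from mice labelled WT and the other from mice labelled KO. The labels give neither the targeted gene, the allele and the promoter of any Cre, nor the sex and number of animals behind a library. The sort kept cells positive for VE-cadherin, by which endothelial cells hold together, and negative for CD45, which leukocytes carry, and both libraries are labelled as endothelial.

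Fatty acid synthesis starts from acetyl-CoA, which Acly and Acss2 supply, and runs through Acaca and Fasn to palmitate, which elongases extend and the desaturases Scd1 and Scd2 turn into monounsaturated chains. Cholesterol synthesis also starts from acetyl-CoA, passes through mevalonate and isoprenoids to squalene, and ends with a series of enzymes that trim and rearrange the sterol ring. Both routes are driven by SREBP factors (Srebf1 and Srebf2), which Scap carries to the Golgi for activation unless sterols and the Insig proteins hold them in the endoplasmic reticulum. In lung these routes are best known in alveolar type 2 (AT2) cells, which make the phospholipid and cholesterol of surfactant.

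Totals were 25667220 UMIs over 3482 WT barcodes and 17864581 UMIs over 2196 KO barcodes, and 15.1% of WT and 30.5% of KO barcodes were above the limit on mitochondrial UMIs. The 2708 WT and 1314 KO cells kept formed 19 clusters, and 6 of their barcodes occurred in both libraries. Each group was 1 library, so differences have no replicates behind them and were not tested, and the 95% intervals cover counting error only. Genes whose mean over both libraries reached 10 CPM count as tested, which refers to this rule and to no p-value, and one was called lower or higher in KO at 1.5-fold or more with Poisson intervals apart. Acvrl1, the gene in which this disease type is known to arise, stood at 1312 and 1268 CPM in WT and KO general capillary cells and at 411 CPM in endothelial cluster 6, which held KO cells alone. In AT2-like cells it stood at 16.04 and 3.11 CPM, under the minimum, and the labels do not say whether it was the target. The AT2-like class, 826 WT and 597 KO cells, made up 30.5% and 45.4% of the libraries in spite of the sort. Its median depth was 17642.5 and 19594 UMIs per cell. All 12 AT2 markers were present, with summed levels of 242743 and 239423 CPM, and Etv5 alone among them was called lower (404 and 258 CPM). Most of each sum was Sftpc, at 181543 and 183293 CPM. Lyz1 and Cd74, outside the marker list but among the leading genes of an AT2-like cluster, were called lower. Lyz1 stood at 7699 and 5076 CPM and Cd74 at 2895 and 1486 CPM in the AT2-like class. Cdh5, the VE-cadherin gene, stood at 9.72 and 4.58 CPM there, against 1865 and 2034 CPM in the general capillary class.

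The sequence that SREBP factors bind, the sterol regulatory element, usually stands beside sites of NF-Y or Sp1. The upstream sequences of 3 members are shown because they differ in these letters and because their values differ in AT2-like cells. Hmgcs1 makes HMG-CoA at the entry of the mevalonate route, Insig1 retains SREBP, and Pmvk, a kinase of the same route, was the one member called higher in KO. They are from RefSeq on GRCm38.p6, plus strand, at chr13:119690101-119690350 for Hmgcs1, chr5:28071162-28071362 for Insig1 and chr3:89454291-89454540 for Pmvk. Capitals mark matches to TCACNCCAC (sterol regulatory element), CCAAT (NF-Y), GGGCGG (Sp1) and CACGTG (E-box) on either strand, so some capitals spell the reverse complement of a motif. The Insig1 stretch ends where the annotated gene begins.
Hmgcs1: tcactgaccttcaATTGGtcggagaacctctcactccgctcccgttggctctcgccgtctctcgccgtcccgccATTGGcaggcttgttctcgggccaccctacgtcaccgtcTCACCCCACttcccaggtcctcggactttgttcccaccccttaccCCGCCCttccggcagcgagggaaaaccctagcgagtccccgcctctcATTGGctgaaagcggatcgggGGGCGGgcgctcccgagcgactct
Insig1: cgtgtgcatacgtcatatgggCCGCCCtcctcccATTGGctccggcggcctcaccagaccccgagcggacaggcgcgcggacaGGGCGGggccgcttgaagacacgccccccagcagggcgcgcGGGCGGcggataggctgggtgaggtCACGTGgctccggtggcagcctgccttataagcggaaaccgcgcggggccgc
Pmvk: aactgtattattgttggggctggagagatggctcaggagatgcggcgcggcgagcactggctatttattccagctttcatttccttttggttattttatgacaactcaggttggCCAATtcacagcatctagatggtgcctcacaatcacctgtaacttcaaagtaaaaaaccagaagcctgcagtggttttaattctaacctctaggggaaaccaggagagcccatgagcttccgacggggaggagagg
In these stretches Hmgcs1 held the sterol element 137 bases before its start, between CCAAT matches at 176 and 45 bases, with a further one at 237 bases and Sp1 matches at 92 and 24 bases. Insig1 held 3 Sp1 matches, 1 CCAAT match and 1 E-box and no TCACNCCAC. Pmvk held 1 CCAAT match alone. The promoter table covers 250 bases before to 50 after each start and held 25 of the 31 members, with 35 promoters. Scd1, Scd2, Fdft1, Fdps, Sqle and Stard4 were not in it, and all of these but Scd2 were called lower in AT2-like cells. TCACNCCAC was in 1 member promoter, that of Hmgcs1, and in 1.24% of all 32851 promoters. CCAAT was in 65.7% of member promoters and 37.4% of all, GGGCGG in 71.4% and 35.7%, and CACGTG in 20% and 7.15%. No motif overlapped another in the printed stretches. A match describes the letters, not a bound site. Only exact matches inside this window were counted, so elements with other letters or further from the start were not looked for.

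In AT2-like cells most of the 31 genes stood lower in the KO library. Of 29 members that reached the minimum level, 14 (48.3%) were called lower, against 2.36% of all 7363 genes tested, and 1, Pmvk, was called higher, against 1.89%. The ratio of KO to WT was below 1 for 26 of the 29, and their median log2 ratio was -0.55, against -0.01 over all genes tested. The cholesterol arm differed most, with 10 of 14 tested enzymes lower, 1 higher and a median of -0.73. In the fatty acid arm 2 of 9 were lower (median -0.31), among the regulators 1 of 5 (median -0.04), and Stard4 was lower. The count lower was 7 with cells thinned to 1500 UMIs, against 1.31% of all genes, 7 of 16 tested at a minimum of 50 CPM, against 1.44%, and 3 with a call at 2-fold, against 0.72%. Thinning ended the calls of Elovl1, Lss, Mvd, Nsdhl, Sc5d, Sqle and Stard4, and the minimum of 50 CPM left out Fdft1, Lss, Mvd, Nsdhl, Sc5d, Sqle and Stard4.

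**Figure D1:**
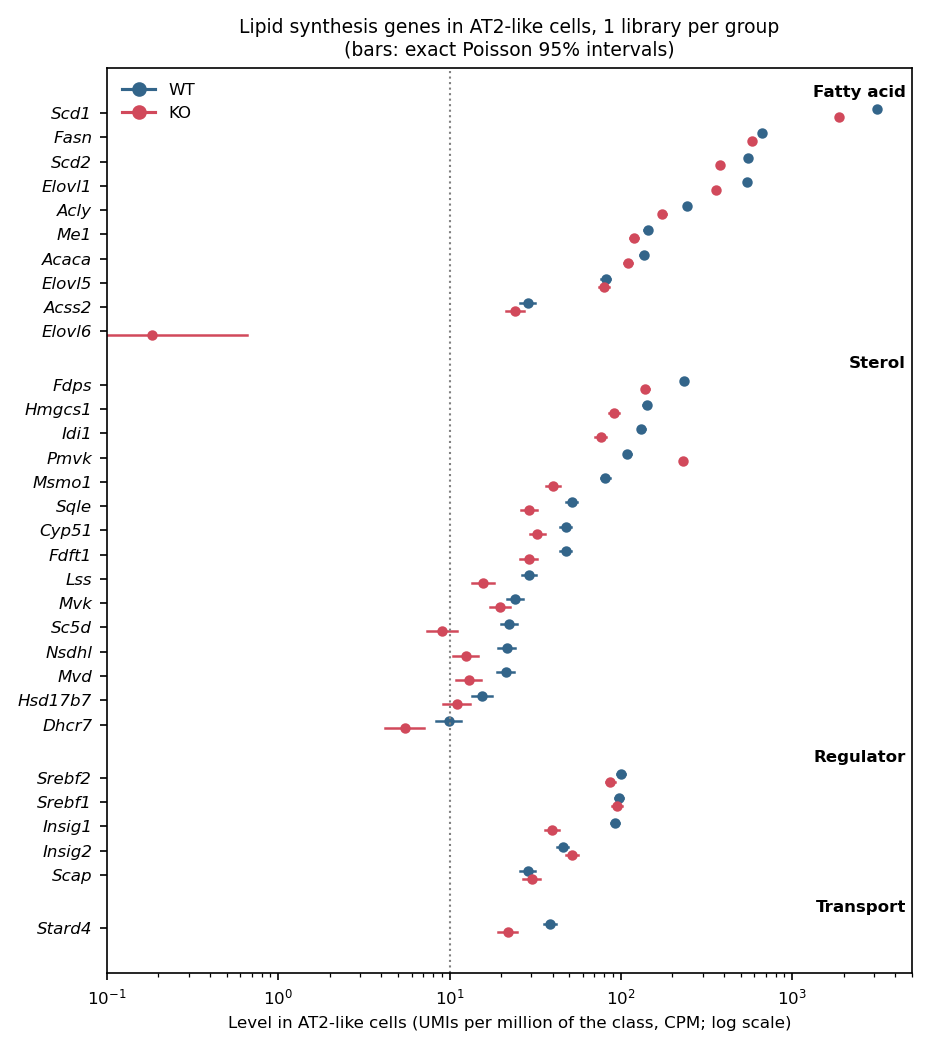
Level of each of the 31 genes in AT2-like cells of the WT (blue) and KO (red) library, in CPM of the class on a log axis, with exact Poisson 95% intervals as bars, 1 library per group. The dotted line marks the minimum of 10 CPM, Elovl6 had 0 UMIs in WT and is drawn for KO alone, and the KO points lie left of the WT points for most genes, with Pmvk the clearest exception.

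**Figure D2:**
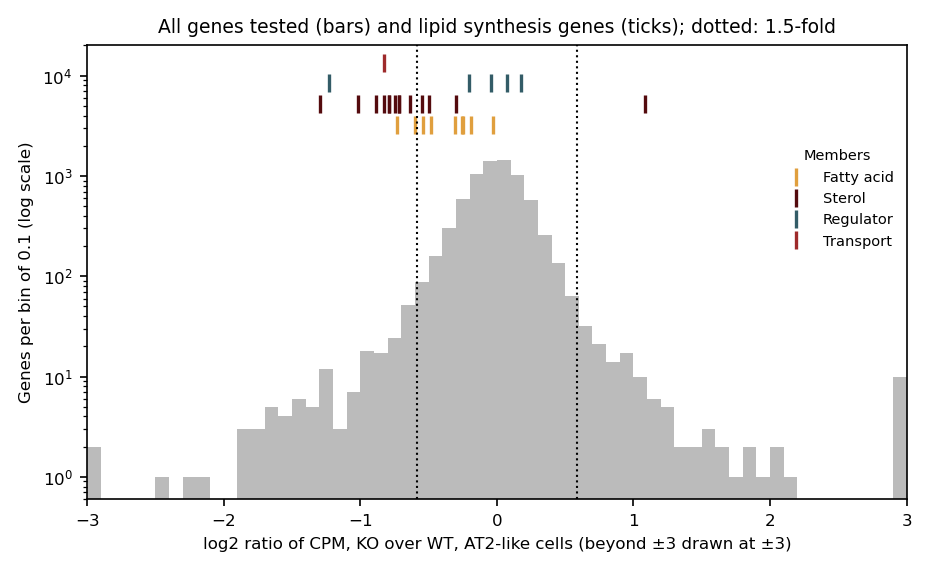
Number of genes per bin of the log2 ratio of KO over WT in AT2-like cells (grey bars, log axis) for all 7363 genes tested, with ticks above for the 29 tested members by arm. Dotted lines mark 1.5-fold, and most sterol ticks lie left of the lower line while all genes centre near 0.

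Among the fatty acid genes, Scd1 had by far the highest count. Scd1 (ENSMUSG00000037071, chromosome 19, 44394455 to 44407879, minus strand, GRCm38), which puts a double bond into stearate and palmitate, stood at 3113 (3084 to 3142) CPM in WT and 1875 (1849.7 to 1901) CPM in KO, a ratio of 0.602 (0.593 to 0.613). Elovl1, an elongase of very long saturated chains, stood at 541 (529 to 554) CPM in WT and 358 (347 to 369) CPM in KO, a ratio of 0.661 (0.636 to 0.687). Both were called lower, but neither was among cells with Xist alone. The Elovl1 call was also lost with a looser cell filter (200 genes, 20% mitochondrial UMIs), with thinned cells, with each cell weighted alike, at 2-fold and in the smaller AT2-like cluster. Scd2, the neighbouring desaturase gene 87591 bases from Scd1 on the opposite strand, stood at 553 (541 to 565) CPM in WT and 381 (369 to 392) CPM in KO. Its ratio of 0.688 (0.663 to 0.715) was a little above the call limit. The core of the pathway differed less. Fasn, which builds palmitate, stood at 667 (653 to 680.4) CPM in WT and 585 (570.4 to 599) CPM in KO, a ratio of 0.877 (0.849 to 0.905). Acaca, which makes its malonyl-CoA, stood at 136 (130.0 to 142) CPM in WT and 109.7 (104 to 116) CPM in KO, a ratio of 0.807 (0.750 to 0.867).

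The suppliers of carbon and reducing power were also below WT without reaching the call. Acly, which makes acetyl-CoA from citrate, stood at 243 (235 to 251) CPM in WT and 174 (167 to 182) CPM in KO, a ratio of 0.718 (0.678 to 0.759). Acss2, which makes it from acetate, stood at 28.7 (25.9 to 31.6) CPM in WT and 24.2 (21.4 to 27.3) CPM in KO, and these intervals overlapped. Me1, an NADPH source, stood at 143 (137 to 149.8) CPM in WT and 119.9 (114 to 127) CPM in KO, a ratio of 0.836 (0.780 to 0.897). Elovl5, an elongase of polyunsaturated chains, stood at 81.7 (77.04 to 86.6) CPM in WT and 79.97 (74.8 to 85.5) CPM in KO, a ratio of 0.979 (0.895 to 1.07) whose interval included 1. Elovl6, the elongase of palmitate, had 0 UMIs in WT and 2 in KO AT2-like cells, too few for a ratio. The annotation places another gene on the same strand across Elovl6 and 8 further members. Reads of a shared stretch could not be told apart where both genes were counted. Whether the other genes, several of them microRNAs, were counted was not checked.

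The first enzymes of the cholesterol route were lower in KO with one exception. Hmgcs1, which makes HMG-CoA, stood at 142 (135 to 148) CPM in WT and 91.2 (85.7 to 97.1) CPM in KO, a ratio of 0.644 (0.597 to 0.696). Mvk, the mevalonate kinase that follows, stood at 24.2 (21.7 to 26.9) CPM in WT and 19.7 (17.2 to 22.5) CPM in KO, a ratio of 0.814 (0.683 to 0.968) that was not called. Pmvk (ENSMUSG00000027952, chromosome 3, 89454541 to 89469013, plus strand), which adds the next phosphate, stood at 109 (104 to 115) CPM in WT and 231 (222 to 241) CPM in KO, a ratio of 2.12 (1.99 to 2.26). Pmvk thus lay on the other side of WT from the enzymes before and after it. Mvd, which makes isopentenyl diphosphate, stood at 21.2 (18.9 to 23.8) CPM in WT and 12.9 (10.9 to 15.2) CPM in KO. Idi1, its isomerase, stood at 131 (126 to 138) CPM in WT and 76.1 (71.04 to 81.5) CPM in KO. Fdps, which joins isoprenes to farnesyl diphosphate and had the highest WT level of the arm, stood at 233 (225 to 241) CPM in WT and 139 (132 to 146) CPM in KO. All 3 were called lower in the whole class, with ratios of 0.609 (0.495 to 0.746), 0.579 (0.533 to 0.629) and 0.598 (0.562 to 0.635). Fdps was not called in the larger AT2-like cluster, with a ratio of 0.687 (0.631 to 0.748). Hmgcs1 and Mvd were not called in the smaller AT2-like cluster or in KO cells with Y-linked UMIs alone. Mvd was also not called in thinned cells.

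Enzymes from squalene onward followed. Fdft1, which makes squalene, stood at 47.6 (44.02 to 51.3) CPM in WT and 28.9 (25.8 to 32.3) CPM in KO, a ratio of 0.609 (0.531 to 0.697). Sqle, which oxidises it and limits the rate of the later route, stood at 51.7 (47.99 to 55.6) CPM in WT and 29.1 (26.02 to 32.5) CPM in KO, a ratio of 0.564 (0.493 to 0.644). Lss, which closes the ring to lanosterol, stood at 29.1 (26.4 to 32.1) CPM in WT and 15.8 (13.5 to 18.3) CPM in KO, a ratio of 0.541 (0.450 to 0.649). All 3 of these steps were called lower in the whole class, Lss and Sqle not in thinned cells and Fdft1 not in the smaller AT2-like cluster. Cyp51, which removes the first methyl group, stood at 47.6 (44.1 to 51.4) CPM in WT and 32.6 (29.3 to 36.2) CPM in KO, and its ratio of 0.685 (0.600 to 0.780) was just short of the limit. Msmo1, which works on further methyl groups, stood at 81.3 (76.6 to 86.1) CPM in WT and 40.1 (36.5 to 44.1) CPM in KO. Nsdhl, which acts in the same removal, stood at 21.5 (19.2 to 24.1) CPM in WT and 12.5 (10.5 to 14.7) CPM in KO. Both were called in the whole class, with ratios of 0.494 (0.441 to 0.552) and 0.579 (0.470 to 0.711). Nsdhl was not called in thinned cells or in the smaller AT2-like cluster.

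The last ring enzymes were low in both libraries. Hsd17b7, a sterol ketone reductase, stood at 15.5 (13.6 to 17.7) CPM in WT and 10.99 (9.11 to 13.1) CPM in KO, a ratio of 0.707 (0.561 to 0.888), and was not called. Sc5d, which sets a ring double bond, stood at 22.3 (19.9 to 24.9) CPM in WT and 9.07 (7.37 to 11.04) CPM in KO. Its ratio of 0.407 (0.321 to 0.512) was the lowest among the tested members, and it passed the minimum through its WT level. Dhcr7, which reduces the last intermediate to cholesterol, stood at 9.94 (8.36 to 11.7) CPM in WT and 5.50 (4.19 to 7.07) CPM in KO, under the minimum. Just inside the minimum lay Hsd17b7 with a mean of 13.3 CPM, and just outside it Dhcr7 with 7.72 CPM.

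The regulators differed from one another. Insig1 (ENSMUSG00000045294, chromosome 5, 28071363 to 28078662, plus strand), itself known as an SREBP target, stood at 92.98 (88.01 to 98.2) CPM in WT and 39.7 (36.02 to 43.6) CPM in KO, a ratio of 0.427 (0.382 to 0.476). Its relative Insig2, which is known to be controlled otherwise, stood at 45.7 (42.2 to 49.4) CPM in WT and 51.8 (47.6 to 56.2) CPM in KO, a ratio of 1.13 (1.01 to 1.27). The Insig1 level was above that of Insig2 in WT and below it in KO. Srebf1, whose gene encodes the factor tied mainly to fatty acid synthesis, stood at 97.8 (92.7 to 103) CPM in WT and 94.995 (89.3 to 101) CPM in KO, and the intervals overlapped. Srebf2, whose factor is tied mainly to cholesterol synthesis, stood at 100.4 (95.2 to 106) CPM in WT and 86.9 (81.5 to 92.6) CPM in KO, a ratio of 0.866 (0.797 to 0.941). Scap, their escort, stood at 28.6 (25.9 to 31.5) CPM in WT and 30.1 (26.97 to 33.6) CPM in KO, again with overlapping intervals. Transcript levels of these 3 do not show how much of each factor was in its active form. Stard4, which carries sterols between membranes, stood at 38.7 (35.5 to 42.1) CPM in WT and 21.8 (19.1 to 24.8) CPM in KO, a ratio of 0.564 (0.482 to 0.658), and was called lower.

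Other genes of these routes were given by 7 lists with 84 genes, to be read beside the 2.36% of all genes lower and 1.89% higher. In the list of other cholesterol enzymes 1 of 5 tested was lower and 0 higher. In the uptake, efflux and storage list 2 of 8 were lower and 0 higher. Scarb1, the HDL receptor, was among them at 15.6 and 8.79 CPM in WT and KO, a ratio of 0.563 (0.438 to 0.719). Among 13 other fatty acid genes 1 was lower and 1 higher. Fads1, a desaturase of polyunsaturated chains, stood at 97.2 and 54.6 CPM in WT and KO, a ratio of 0.561 (0.509 to 0.619). Hacd1, a dehydratase of elongation, stood at 25.7 and 47.5 CPM in WT and KO, a ratio of 1.85 (1.61 to 2.12). Among 12 genes of glycerolipid and phosphatidylcholine synthesis 1 was lower and 0 higher. This was Lpin1, a phosphatidate phosphatase, at 20.7 and 10.1 CPM in WT and KO, a ratio of 0.486 (0.387 to 0.607). None of 12 fatty acid oxidation genes, 9 genes of NADPH and acetyl-CoA supply or 8 SREBP and LXR regulators was called in either direction. Over all lists 5 genes were lower and 1 higher, and the count lower was 2 with cells thinned to 1500 UMIs. Among cells with Xist alone, where 7.9% of all genes were lower and 6.25% higher, 13 list genes were lower and 5 higher, including 1 NADPH gene in each direction and 1 SREBP or LXR regulator lower. The list medians ran from -0.39 for other cholesterol enzymes to 0.08 for fatty acid oxidation on the log2 scale.

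Other genes also differed between the AT2-like cells of the libraries. Markers of club cells, the secretory cells of small airways, summed to 398 CPM in WT and 4960.1 CPM in KO, with all 3 tested genes called higher and 1 of 5 markers at 0 UMIs in WT. Scgb1a1 stood at 378 and 4721 CPM. Haemoglobin and other erythroid markers summed to 796 and 2049 CPM, with all 4 tested genes called higher. The 10 endothelial markers summed to 214 and 128 CPM, and 3 of 4 tested were called lower. The 9 arterial markers went the other way, at 56.6 and 268 CPM, and the 2 tested, Mgp and Efnb2, were called higher. Ptprb of the general capillary list and Mfap4 of the fibroblast list were called lower. Acta2 of the smooth muscle list and Krt19 of the mesothelial list were called higher. Of 3 genes known to respond to cell handling, picked by hand, Fos stood at 60.2 and 31.9 CPM, Egr1 at 70.3 and 37.4 CPM and Hspa1a at 55.4 and 20.2 CPM. The median mitochondrial share was 4.92% and 4.91%. The part of these differences in the lipid gene levels was not tested.

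How the UMIs were spread over AT2-like cells differed by gene. The 5 highest cells held 5.35% of Scd1 UMIs in WT and 11.6% in KO, 3.74% and 7.85% of Insig1 UMIs, and 5.92% and 11.8% of Pmvk UMIs. After thinning every cell to 5000 UMIs (48 WT and 69 KO cells were shallower and left out), an Scd1 UMI was found in 97.9% (96.7 to 98.8) and 95.8% (93.8 to 97.4) of WT and KO cells. In gCap-like cells, the general capillary class described further on, the Scd1 share at the same depth was 50.95% (43.98 to 57.9) for WT (210 cells) and 23.1% (15.96 to 31.7) for KO (121 cells), with median depths of 3863 and 4880.5 UMIs before thinning. The Scd1 share in AT2-like cells was thus near its ceiling and says little of the level. The gCap-like shares leave out 748 WT and 131 KO cells that were shallower, so they describe the deeper cells of that class. Insig1 was seen in 33.9% (30.6 to 37.4) and 16.9% (13.8 to 20.3) of thinned cells (64.9% and 41.4% unthinned). Msmo1 was seen in 28.9% (25.8 to 32.2) and 17.05% (13.9 to 20.5) (59.7% and 41.04% unthinned). In gCap-like cells the shares were 10.95% (7.07 to 15.98) and 3.31% (0.908 to 8.25) for Insig1 and 12.9% (8.65 to 18.2) and 14.9% (9.06 to 22.5) for Msmo1. For Pmvk the AT2-like shares went the other way, at 36.9% (33.5 to 40.4) and 50.4% (46.03 to 54.7) (66.9% and 75.9% unthinned). The Pmvk shares in gCap-like cells were 11.4% (7.46 to 16.5) for WT and 9.09% (4.63 to 15.7) for KO.

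Summed per thinned cell, the 14 sterol enzymes other than Pmvk gave a median of 4 UMIs in WT (10th to 90th percentile 0 to 10) and 2 in KO (0 to 6). The 9 fatty acid genes other than Scd1 gave medians of 11 (5 to 20) and 9 (4 to 15.3). Scd1 alone gave 10.5 (2 to 35) and 6 (2 to 19). The ranges of cells overlapped widely in all 3 sums. Across cells of a library, which share their capture and free RNA, the sterol sum and the fatty acid sum had a Pearson correlation of 0.453 over 778 WT cells and 0.305 over 528 KO cells. For Scd1 and the sterol sum it was 0.473 and 0.243. For Pmvk and the other sterol enzymes it was 0.112 and -0.0052.

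The libraries also differed in sex-linked transcripts. Of AT2-like cells with UMIs of either Xist, the RNA of the inactive X chromosome, or Y-linked genes but not of both, WT had 762 with Xist and 0 with Y-linked UMIs. KO had 84 of the first kind and 398 of the second. The comparison of all AT2-like cells therefore set WT cells of one kind against KO cells of both kinds. Among cells with Xist alone, 17 of 29 tested members were called lower in KO, against 7.9% of all genes, and Pmvk was called higher, against 6.25%. The members' median log2 ratio was -0.95, against -0.02 over all genes tested. Insig1 stood at 92.2 and 29.2 CPM, a ratio of 0.317 (0.235 to 0.420). Idi1 stood at 129 and 36.1 CPM, a ratio of 0.281 (0.215 to 0.361). Pmvk stood at 109 and 344 CPM, a ratio of 3.17 (2.88 to 3.48). Of the sterol enzymes 13 of 14 tested were lower. Among these 13, Lss, Mvd, Sc5d and Hsd17b7 passed the minimum through their WT levels. Their KO levels were 9.17, 7.45, 8.03 and 5.16 CPM, from 16, 13, 14 and 9 UMIs. Scd1, with a ratio of 0.683 (0.660 to 0.706), and Elovl1, with 0.695 (0.641 to 0.753), fell short of the call.

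Set against the same WT cells, KO cells with Y-linked UMIs alone had 12 of 29 members lower, against 2.18% of all genes, and Pmvk higher, against 1.63%. Their median was -0.53. Scd1 stood at 1779 CPM there, a ratio of 0.578 (0.567 to 0.589), and Insig1 at 40.5 CPM, a ratio of 0.440 (0.388 to 0.498). Hmgcs1 and Mvd, called in the whole class, had ratios of 0.691 and 0.668 and were not called. Within the KO library, cells with Xist alone had 6 of 27 tested members lower than cells with Y-linked UMIs alone, against 5.01% of all genes. These were Hmgcs1, Fdps, Idi1, Cyp51, Msmo1 and Stard4, with ratios from 0.422 (Idi1) to 0.600 (Hmgcs1). Pmvk was higher in the cells with Xist alone, against 4.21% of all genes, at 344 CPM and 221 CPM, a ratio of 1.56 (1.42 to 1.71). Whether these cells came from separate mice is not given, so sex and animal cannot be told apart.

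**Figure D3:**
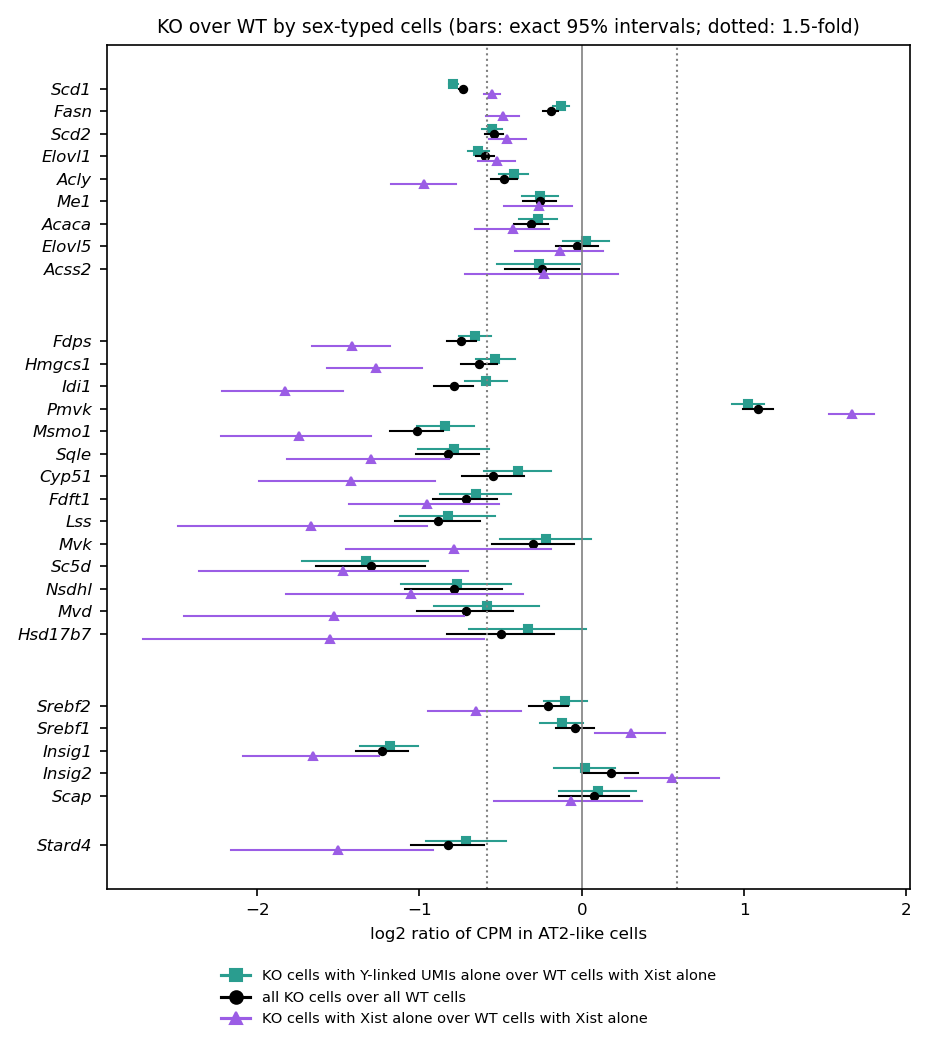
Log2 ratio of KO over WT in AT2-like cells for the 29 tested members, with exact 95% intervals, for all cells (black circles), for KO cells with Y-linked UMIs alone (green squares) and for KO cells with Xist alone (purple triangles), the last both over WT cells with Xist alone. Dotted lines mark 1.5-fold, and most sterol genes lie further left, and Pmvk further right, in the 84 KO cells with Xist alone than in the 398 with Y-linked UMIs alone.

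AT2-like cells fell into clusters numbered 0 (460 WT and 402 KO cells) and 2 (366 WT and 195 KO cells), which were formed without the member genes. The share of AT2-like cells in cluster 2 was 44.3% (40.9 to 47.8) for WT and 32.7% (28.9 to 36.6) for KO. Members stood higher in cluster 2 than in cluster 0: 9 of 30 tested were called higher and 0 lower in WT, against 1.76% and 2.99% of all genes. In KO 9 of 28 were higher and 0 lower, against 2.84% and 3.44%. Scd1 stood at 2357 CPM in cluster 0 and 3973 CPM in cluster 2 of WT, and at 1541 and 2472 CPM in KO. The KO over WT difference was present in each cluster. In cluster 0, 13 of 29 members were lower, against 3.04% of all genes, and Pmvk was higher, against 1.98%, with a median of -0.46. In cluster 2, 10 of 29 were lower, against 2.08%, and Pmvk was higher, against 1.93%, with a median of -0.48. Insig1 had ratios of 0.452 (0.385 to 0.528) and 0.446 (0.381 to 0.522), and Pmvk of 2.52 (2.30 to 2.75) and 1.72 (1.56 to 1.89). Genes that differed between the libraries had been left out of the clustering, but genes that vary with the members had not, so the clusters are not independent of them.

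Outside AT2-like cells most of the 31 genes were expressed at lower levels. The median member stood at 24.5% of its AT2-like level in WT and 32% in KO general capillary (gCap-like) cells, and at 26.5% and 35% in aerocyte (aCap-like) cells, the large capillary cells of gas exchange. It was 21.9% and 26.7% in fibroblast-like and 15.6% and 25.8% in smooth muscle-like cells. Some members went against this order. Elovl5 stood at 241 (226 to 257) CPM in WT and 288 (258 to 319.5) CPM in KO gCap-like cells, above its AT2-like levels. Stard4 stood at 79.2 (70.5 to 88.8) CPM and 78.5 (63.5 to 96.002) CPM there, also above AT2-like cells. Insig2 stood at 56.4 (39.1 to 78.8) CPM and 66.99 (47.2 to 92.3) CPM in smooth muscle-like cells, with intervals that overlapped those of AT2-like cells. Elovl6, at or near 0 in AT2-like cells, stood at 16.01 (9.78 to 24.7) CPM in WT and 5.83 (2.14 to 12.7) CPM in KO fibroblast-like cells.

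**Figure D4:**
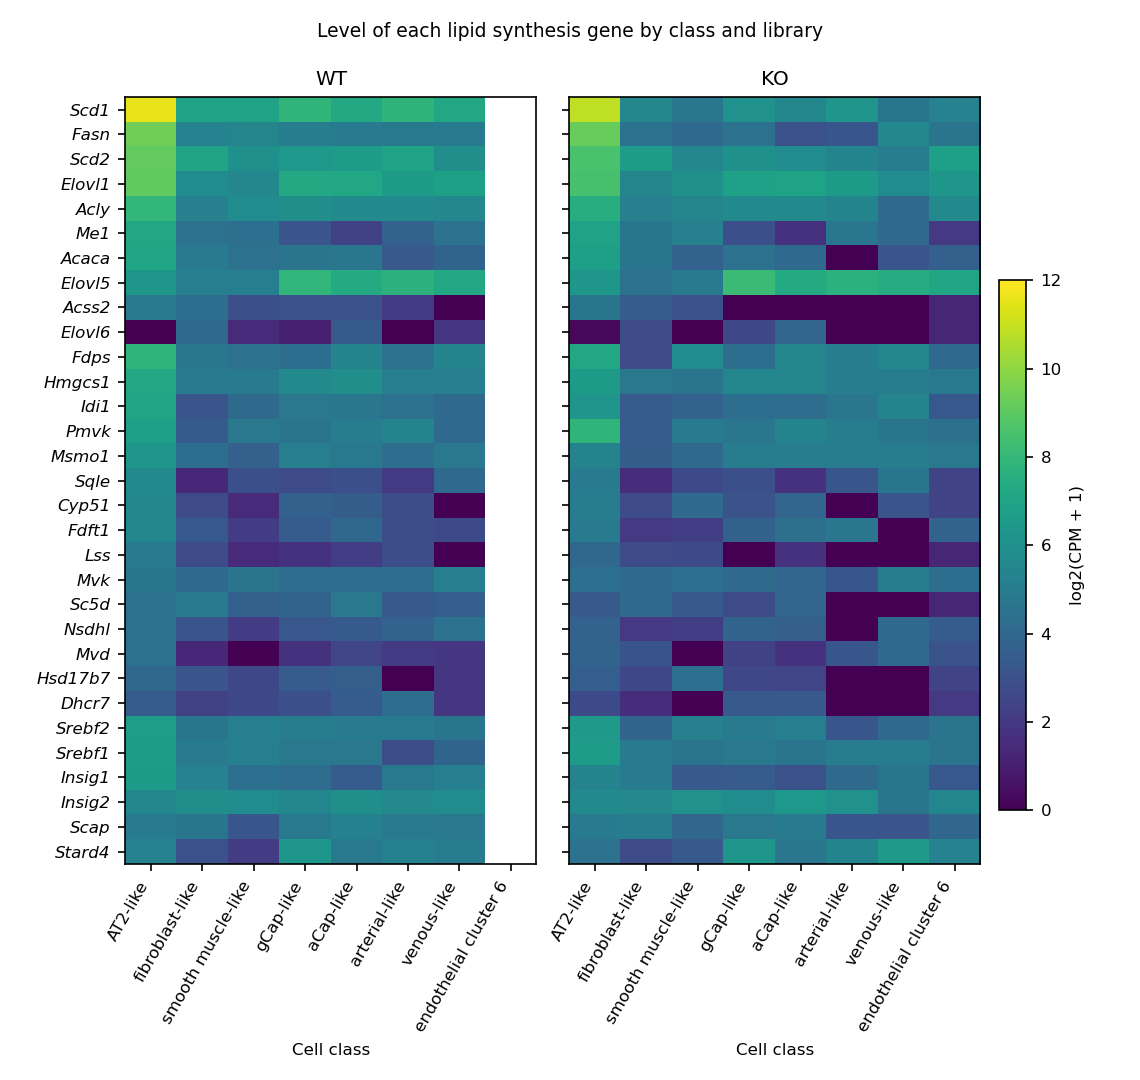
Level of each of the 31 genes, as log2(CPM + 1), in 8 cell classes of the WT (left) and KO (right) library, with genes grouped by arm. AT2-like cells have the highest level of most genes, Elovl5 is an exception with its highest levels in endothelial classes, and the blank WT column is endothelial cluster 6, which held no WT cell.

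In fibroblast-like cells (134 WT and 88 KO) 2 of 20 tested members were called lower and 0 higher, against 6.35% and 3.34% of all genes. Scd1 stood at 124 (105 to 145) CPM in WT and 45.7 (33.6 to 60.8) CPM in KO, a ratio of 0.368 (0.260 to 0.514). Fdps stood at 25.6 (17.5 to 36.2) CPM in WT and 5.83 (2.14 to 12.7) CPM in KO, a ratio of 0.228 (0.0779 to 0.552), from 32 and 6 UMIs. The members' median log2 ratio was -0.39, against -0.13 over all genes. Insig1, so different in AT2-like cells, had a ratio of 0.793 (0.492 to 1.26) here, and Pmvk was under the minimum. This class joins 3 clusters, and the share called over all genes is higher than in AT2-like cells.

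In smooth muscle-like cells (82 WT and 54 KO) Scd1 was the one member called of 21 tested, against 3.78% of all genes lower. It stood at 118 (91.97 to 149) CPM in WT and 25.3 (13.9 to 42.5) CPM in KO, a ratio of 0.215 (0.112 to 0.385), from 71 and 14 UMIs. The median of the members was -0.22, against -0.14 over all genes. Fdps, lower in AT2-like and fibroblast-like cells, stood at 21.6 (11.5 to 36.9) CPM in WT and 54.3 (36.6 to 77.5) CPM in KO, where the intervals overlapped narrowly, so it was not called. Pmvk stood at 26.5 (15.2 to 43.1) CPM in WT and 30.8 (17.9 to 49.3) CPM in KO, with overlapping intervals. No member was called higher, against 2.14% of all genes.

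Among endothelial subtypes the gCap-like class held 958 WT and 252 KO cells. Scd1 was again the one member called of 21 tested, against 2.96% of all genes lower, at 228 (213 to 244) CPM in WT and 66.1 (52.4 to 82.3) CPM in KO, a ratio of 0.290 (0.228 to 0.365). The members' median was -0.12, against -0.02 over all genes, and 0 were higher, against 1.66%. The KO over WT ratios were 0.832 (0.602 to 1.13) for Hmgcs1, 0.940 (0.639 to 1.35) for Msmo1, 0.993 (0.592 to 1.61) for Fdps and 0.991 (0.778 to 1.25) for Stard4, and all 4 intervals included 1. For Msmo1 and Stard4 the lower bound lay above the AT2-like ratios of 0.494 and 0.564, and for Hmgcs1 and Fdps it lay below those of 0.644 and 0.598. Pmvk stood at 23.4 (18.8 to 28.8) CPM in WT and 24.8 (16.7 to 35.4) CPM in KO, with a ratio of 1.06 (0.676 to 1.62). Insig1, not called, stood at 18.3 (14.3 to 23.2) CPM in WT and 9.92 (5.13 to 17.3) CPM in KO. Its ratio was 0.541 (0.266 to 1.006), beside 0.427 in AT2-like cells. Sc5d, under the minimum here, had a ratio of 0.444 (0.170 to 0.986) from 49 and 7 UMIs, beside 0.407 in AT2-like cells. Of the 8 tested sterol enzymes 5 had ratios below 1, with a median log2 ratio of -0.05. Whether ratios differ between classes was not tested.

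In aCap-like cells (394 WT and 69 KO) 3 of 23 tested members were lower, against 1.83% of all genes, and 0 higher, against 1.84%. Scd1 stood at 152 (135 to 169) CPM in WT and 44.1 (26.6 to 68.9) CPM in KO, a ratio of 0.291 (0.173 to 0.462). Scd2 stood at 97.1 (84.3 to 111) CPM in WT and 55.7 (35.7 to 82.9) CPM in KO, a ratio of 0.574 (0.359 to 0.877). Fasn stood at 29.1 (22.3 to 37.3) CPM in WT and 6.96 (1.44 to 20.3) CPM in KO, with 3 UMIs in KO and a ratio of 0.239 (0.0481 to 0.733). All 3 belong to the fatty acid arm, while the 10 tested sterol enzymes had a median log2 ratio of 0.18. Over these 4 classes 7 of 85 member values were lower, against 3.75% of all gene values in the same classes, and 0 higher, and 4 of the 7 were Scd1. The count lower was 2 with cells thinned to 1500 UMIs, against 0.951%, and 11 with each cell weighted alike, against 4.61%. No WT cell of these classes had Y-linked UMIs alone. WT and KO cells with Xist alone numbered 870 and 8 gCap-like and 379 and 8 aCap-like. They numbered 123 and 20 fibroblast-like and 76 and 11 smooth muscle-like. KO cells with Y-linked UMIs alone numbered 144, 47, 50 and 33 in the same order. These calls thus share the sex imbalance of AT2-like cells, and KO cells with Xist alone were too few for calls.

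The lower Scd1 of these classes stood beside AT2 transcripts that were lower there too. The surfactant genes Sftpc, Sftpb and Sftpa1, which other lung cells are not known to make at such levels, stood in gCap-like cells at 1.76% to 4.09% of their AT2-like level in WT and 0.927% to 2.24% in KO. Scd1 stood there at 7.33% and 3.53%, and Fasn at 5.03% and 3.82%. Sftpc went from 3201 to 1699 CPM. In aCap-like cells Scd1 was at 4.87% and 2.35% beside a surfactant range of 1.3% to 3.21% in WT and 0.61% to 1.48% in KO. Fasn stood at 4.36% and 1.19% there, inside the surfactant range in KO. In WT fibroblast-like cells Scd1 and Fasn stood at 3.99% and 5.76%, beside a surfactant range of 0.848% to 1.97%. In WT smooth muscle-like cells they stood at 3.78% and 6.47%, beside 1.06% to 1.98%. Scd1 and Fasn thus lay above every surfactant share in WT in each class. Elovl1 (28.04% and 32.3% in gCap-like cells), Acly (24.4% and 29.9%) and Scd2 (14.9% and 16.9%) lay further above the surfactant shares. The part of free AT2 RNA in the Scd1 and Fasn levels of these classes was not tested.

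**Figure D5:**
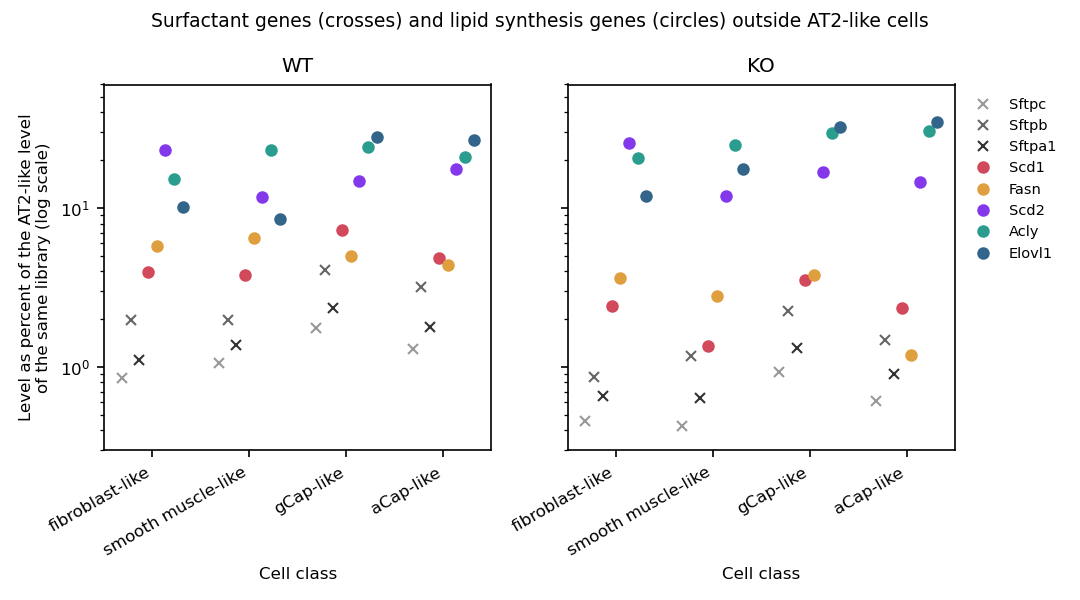
Level of 3 surfactant genes (crosses) and 5 fatty acid genes (circles) in the 4 compared classes outside AT2-like cells, as a percent of the AT2-like level of the same library on a log axis, WT left and KO right. Scd1 and Fasn lie above the surfactant genes in each WT class, and Scd2, Acly and Elovl1 lie further above. The surfactant and Scd1 shares are lower in KO than in WT in each class.

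Arterial-like (71 WT and 21 KO) and venous-like cells (57 and 14) were too few in KO for calls. Scd1 stood at 221 (173 to 279) CPM and 74.6 (34.1 to 142) CPM in arterial-like cells and at 144 (108 to 188) CPM and 24.2 (4.98 to 70.6) CPM in venous-like cells. Elovl5 stood at 206 and 199 CPM in arterial-like and 141 and 169 CPM in venous-like cells, so it stood above its AT2-like level in both.

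Endothelial cluster 6 held 119 KO and 0 WT cells, so cluster and library cannot be told apart. Set against the 321 KO gCap-like and aCap-like cells, it had 1 of 20 tested members lower, against 8.62% of all genes, and 1 higher, against 8.04%. Elovl5 was the lower one, at 130.5 CPM against 255 CPM, a ratio of 0.512 (0.402 to 0.646). Scd2 was the higher one, at 109.7 CPM against 62.2 CPM, a ratio of 1.76 (1.29 to 2.40). Scd1 did not share the direction of Scd2, with a ratio of 0.639 (0.398 to 0.992). Both counts of 1 lay near the background of this comparison. The ratio was still below 1 for 17 of the 20 members. Their median log2 ratio was -0.50, against -0.07 over all genes tested. Cluster 6 held 56 cells with Xist alone and 45 with Y-linked UMIs alone, against 8 and 144 KO gCap-like and 8 and 47 KO aCap-like cells, so cluster, sex and animal cannot be told apart.

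Some cholesterol genes stood above their AT2-like level in a cluster left without a name, led by S100a4, Fbp1, H2-Aa, Tyrobp and Mrc1 (82 WT and 25 KO cells, median depths of 1940.0 and 1874 UMIs). Cyp51 stood at 249 (186 to 325) CPM in WT and 245 (126 to 427) CPM in KO there, against 47.6 and 32.6 CPM in AT2-like cells. Hmgcs1 stood at 309.8 (239.6 to 394) CPM and 81.6 (22.2 to 209) CPM, and Insig1 at 178 (126 to 245) CPM and 245 (126 to 427) CPM. In WT all 3 lay above their AT2-like levels, with intervals apart, and in KO so did Cyp51 and Insig1. Fdft1 stood at 61.03 (32.5 to 104) CPM in WT, where its interval overlapped that of AT2-like cells. Lss and Sqle, of the same route, stood at 4.69 and 4.69 CPM in WT, below AT2-like cells. The surfactant genes stood at 6.32% to 15.6% of their AT2-like level in these WT cells, and the cluster was singled out after its values had been seen. Of its WT cells 9 had Y-linked UMIs alone and 5 had Xist alone, unlike WT AT2-like cells.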

How the data were processed

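Single-cell RNA-seq of sorted lung cells was analysed in 1 WT and 1 KO library. Raw UMI counts by gene and barcode were deposited by the authors, who used Cell Ranger and mm10, per the submitters' processing notes, at software version 3.0.1, per the file headers. Libraries followed the 3' v3 protocol, per the labels' protocols.

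Barcodes under 500 genes or above 10% mitochondrial UMIs were dropped, and doublets called by Scrublet (scanpy 1.11.5) were removed (37 WT, 12 KO). From 2000 variable genes, 8 member or pathway genes and 499 genes that differed between libraries within a first-step class were left out. The remaining 1493 gave 30 principal components, 20 neighbours and Leiden clusters (leidenalg 0.10.2) at resolution 1. A name took 3 markers found in 10% or more of a cluster's cells at 2-fold the median cluster, and among the top 10 genes at least 2 own markers (1 for endothelial subtypes) and no more of another class. This naming rule was revised in 2 steps after clusters had been seen, first to count other classes for endothelial subtypes and then to require 2 own markers. Both earlier forms were run as alternatives.

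UMIs were summed per class and library. Levels have exact Poisson and ratios exact conditional binomial intervals; shares have exact Clopper-Pearson intervals. Y-linked genes were Ddx3y, Eif2s3y, Kdm5d and Uty. The calling was run on simulated counts that held Poisson error alone, which the intervals also assume. Such a run says nothing of variation between cells, animals or libraries. Classes with at least 50 cells in each library were compared. Members and lists were chosen with earlier results of these data known. By rule, all members were to be named, each with its values where it passed the minimum in AT2-like cells, up to 4 called genes per list or class in each direction, and promoters with the sterol element. The Insig1 and Pmvk promoters, the grouping into arms, the per-cell sums, the stress and marker genes, the gCap-like shares of cells, the genes left out for differing between libraries, the comparisons of AT2-like clusters, endothelial cluster 6 and the unnamed cluster, and the uncalled members named in other classes were chosen after values had been seen. Some genes of the lists are not reported by name here. Gene positions are from GENCODE M21 and promoters from RefSeq, both GRCm38.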

Additional observations from a re-analysis of the deposited data

How the results depend on the processing

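No paired analysis was possible because each group is a single library. No member value called in a class changed direction under any of the 17 alternatives that gave it a value. In AT2-like cells 14 members were lower, and the count was 7 with cells thinned to 1500 UMIs, 7 with a minimum of 50 CPM and 3 with a call at 2-fold (Insig1, Msmo1 and Sc5d), all among the same 14. It was 13 to 15 under the other filters, scalings and clusterings, 17 for cells with Xist alone (12 of them shared, without Scd1 and Elovl1), and 13, 10 and 12 in the larger and the smaller AT2-like cluster and in KO cells with Y-linked UMIs alone. Pmvk was called higher in all of these. The members' median log2 ratio was -0.55 and moved to -0.95 for cells with Xist alone. List genes called lower in AT2-like cells numbered 5, and 2 thinned, 3 by the mean over cells, 2 at 50 CPM, 1 at 2-fold and 13 for cells with Xist alone. Those called higher numbered 1, and 2 with a stricter cell filter (1000 genes, 5% mitochondrial UMIs), 0 thinned, 2 by the mean over cells, 0 at 50 CPM, 0 at 2-fold and 5 for cells with Xist alone. Over the 4 other classes 7 member values were lower, and 2 thinned and 11 by the mean over cells. None was higher, and 1 was with a looser cell filter (200 genes, 20% mitochondrial UMIs) and 1 with scaling by the median ratio. The stricter cell filter and the cells with Xist alone left a class under 50 cells and gave no value there. Cluster naming as first written and after its first revision called the same 14 members lower. These 2 and the separate AT2-like clusters and Y-linked cells were added after seeing the data. Thinning leaves fewer UMIs per class; the cause of the other shifts was not tested.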
